A study of Mus musculus with 13 samples.

Results

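The mitochondrial DNA of the mouse carries its own small set of genes, and these genes are described here in neocortical cells sorted after they had received Fezf2 or a control plasmid. Members were taken from the deposited gene counts by name, as every entry whose symbol begins with MT-, without use of any measured value. This gave 37 of 35972 gene identifiers: 2 ribosomal RNA genes, 13 protein genes and 22 transfer RNA genes.

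Mitochondrial DNA is a circular molecule held in many copies per cell, and both of its strands are copied into long precursor RNAs that cover many genes. The transfer RNAs lie between the larger genes like punctuation, and the enzymes that cut them out release the messenger and ribosomal RNAs on either side. The protein genes encode core subunits of the respiratory chain and of ATP synthase, on which developing neurons depend for energy, and the remaining subunits and the whole machinery for copying, cutting and translating mitochondrial RNA are encoded in the nucleus.

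The sorted cells came from CD-1 IGS mice whose embryos were electroporated in utero at E16.5 with a Fezf2 or a Gfp plasmid. Fezf2 is a zinc-finger transcription factor of deep-layer neocortical neurons. The titles name 5 samples Fezf2 + GFP and 3 samples GFP, all from neocortex taken at postnatal day 3 and sorted by fluorescence. Both groups thus went through surgery, plasmid uptake and sorting, and RNA, labelled total RNA, went into the NuGEN Ovation V2 kit, which amplifies it, before reads of 75 bp were made from 1 end. A neocortex pair of 1 library each, C57BL6/J at postnatal day 0, with a floxed Fezf2 allele deleted by Emx1-cre or wild type, was labelled polyA RNA and made with a TruSeq mRNA kit. Which animals gave each library, whether animals were pooled, and what promoter drove the electroporated plasmids are not given in the labels, so p-values measure the spread between these libraries, which may be technical.

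Total counts were 3484539 to 4221823 in the Fezf2 libraries and 3245932 to 5801839 in the GFP libraries. The level of Fezf2 was in keeping with the labels: it stood at 85.1 to 151 CPM (counts relative to the library total, scaled to CPM with TMM factors) in the Fezf2 libraries and at 3.54 to 12 CPM with GFP, giving a log2 fold change of 3.91 with an SE of 0.33 (edgeR, adjusted p = 6.27e-05). Besides Fezf2 only Eif1b passed among the 13754 genes tested with edgeR, so 0.0145% of tested genes were called. Xist, the RNA that coats the inactive X chromosome of females, stood at 5098 CPM in Fezf2 replicate 5, at 5134 CPM in GFP replicate 1 and at 17.7 to 25.3 CPM in the other 6. Markers of glutamatergic neurons were present in every library, at a summed 1314 to 3512 CPM over 9 genes with Fezf2 and 2679 to 2833 with GFP.

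Along the mitochondrial DNA, a run of 11 neighbouring genes was all but empty while the genes on both sides of it were well covered. In the order of the RefSeq gene table (assembly GRCm38.p6, used here for names and neighbours only), the run extends from mt-Ts1 to mt-Nd4l and lies between mt-Co1 and mt-Nd4. It holds 6 protein genes: mt-Co2 and mt-Co3, subunits of cytochrome c oxidase, mt-Atp8 and mt-Atp6, subunits of ATP synthase, and mt-Nd3 and mt-Nd4l, subunits of complex I. It also holds 5 transfer RNA genes, mt-Ts1 (serine), mt-Td (aspartate), mt-Tk (lysine), mt-Tg (glycine) and mt-Tr (arginine). Of 7594111 counts on mitochondrially encoded genes in the 8 libraries, 4 fell in this run. They were 1 count on mt-Co3 in Fezf2 replicate 2, 1 on mt-Nd3 in GFP replicate 3, and 2 on mt-Tr in GFP replicate 3. The other 8 genes of the run were at 0 in all 8 libraries, which allows up to 0.0936 CPM (unscaled) for a gene over the summed libraries, a limit of 3 counts that covers counting error only.

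Both flanking genes were counted in every library. mt-Co1, which encodes the catalytic subunit of cytochrome c oxidase, had 3163, 2313, 3053, 2456 and 2088 counts in replicates 1 to 5 with Fezf2 and 4205, 2810 and 1846 in replicates 1 to 3 with GFP. mt-Nd4, a subunit of the membrane arm of complex I, had 5131, 3158, 3703, 3377 and 2550 counts with Fezf2 and 5903, 3617 and 2456 with GFP. Outside the run the lowest count of any protein gene in any library was 199, for mt-Nd6 in Fezf2 replicate 2. The authors' RPKM (reads scaled by gene length and library size), which came from another count of the same sorted cells, held the same gap: the highest value in the run was 2.81 RPKM, for mt-Tr in GFP replicate 3, and mt-Co2 reached 0.107 RPKM in 1 library.

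A stretch of the mouse nuclear genome is known to carry a near-identical copy of part of the mitochondrial DNA. Of 8 nuclear gene models of such copies that were looked for, 3 were in the count table. Gm10925, which RefSeq lists with the synonym mt-Atp6, had 15 counts over the 8 libraries, Gm10222 had 1 and Gm10221 had 8. These were 24 counts in all, where each protein gene outside the run had 199 or more in every single library. The sources used here do not give how reads with several matches were handled, and the part of such copies in the gap was not tested. The 6 protein genes of the run can therefore not be compared between groups.

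**Figure D1:**
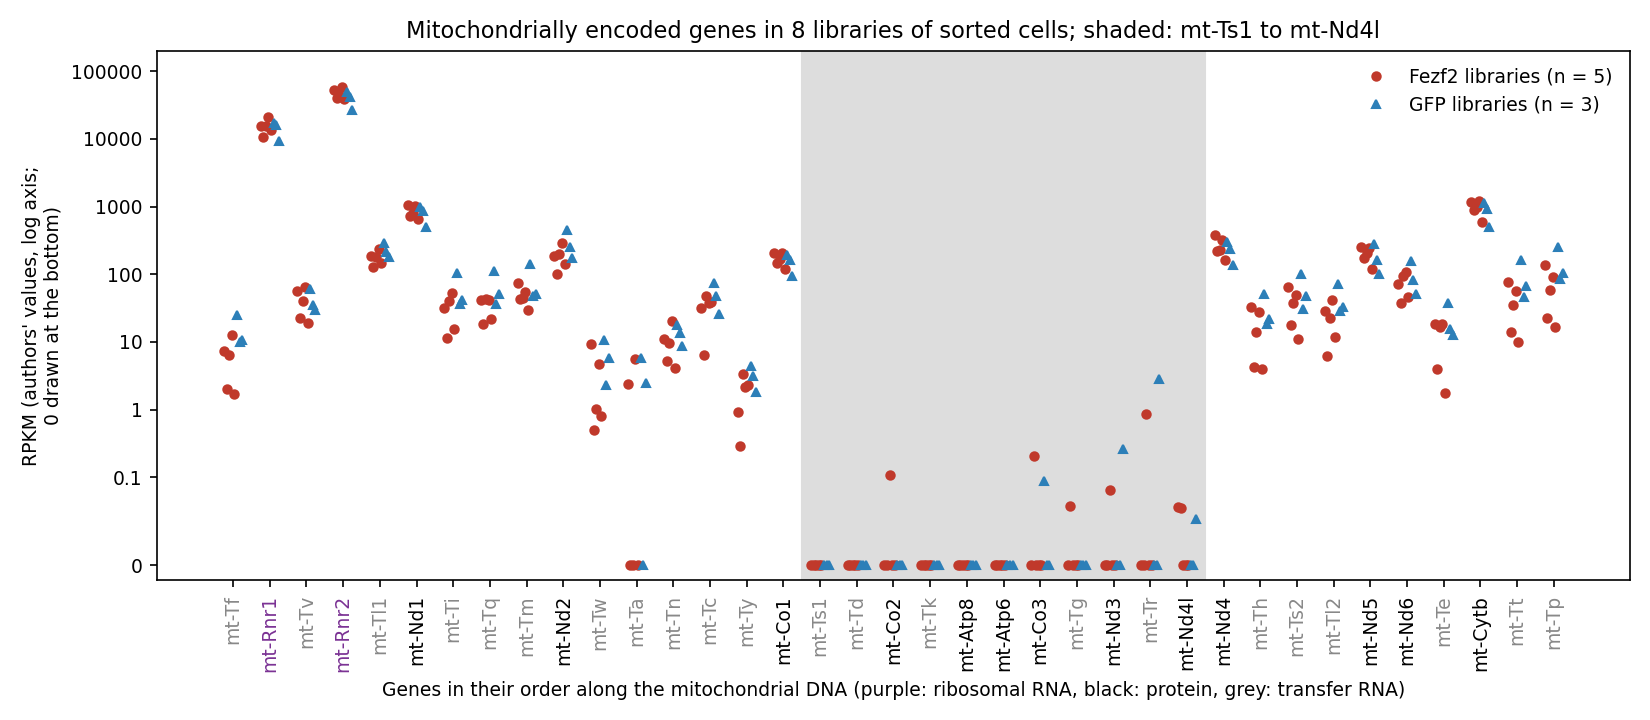
Authors' RPKM (log axis, values of 0 drawn at the bottom) of the 37 mitochondrially encoded genes, in their order along the mitochondrial DNA, with 1 point per library (red circles, 5 Fezf2 libraries; blue triangles, 3 GFP libraries). In the shaded run of 11 genes no value is above 2.81 RPKM, while the ribosomal RNA genes outside it lie between 9140 and 57598 RPKM.

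Per unit length, the ribosomal RNAs stood far above every other member. On the authors' RPKM scale, mt-Rnr2, the 16S RNA of the large mitochondrial ribosomal subunit, had a mean of 43949 ± 9641 RPKM (SD, n = 8 libraries of both groups). mt-Rnr1, the 12S RNA of the small subunit, had 14757 ± 3702 RPKM. The RPKM of mt-Rnr2 was above that of mt-Rnr1 in 8 of 8 libraries, by 2.55 to 3.78 times. mt-Cytb, the mitochondrial subunit of complex III, came next at 928 ± 265 RPKM, and mt-Rnr1 exceeded it by a median of 16.2 times.

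Among the 7 protein genes outside the empty run the RPKM fell into 3 tiers. mt-Cytb and mt-Nd1, a complex I subunit, formed the top, and their order was not fixed: mt-Cytb was higher in 6 of 8 libraries, with a ratio of 0.905 to 1.25. mt-Nd1 (826 ± 192 RPKM) was 4.77 to 5.40 times mt-Co1 (162 ± 40.8 RPKM) in every library. mt-Nd4 (248 ± 79.3 RPKM), mt-Nd2 (224 ± 107 RPKM), mt-Nd5 (192 ± 63.6 RPKM) and mt-Co1 made up the middle, with SDs across libraries wider than the steps between neighbours. Compared within each library, mt-Nd4 was above mt-Co1 in 8 of 8, by 1.36 to 1.82 times. mt-Nd6, the one mitochondrial protein gene coded on the other strand, was lowest at 80.6 ± 38.7 RPKM. mt-Cytb exceeded it by 7.34 to 24.0 times, a span much wider than that of mt-Nd1 over mt-Co1. Whether reads were counted by strand is not given, so mt-Nd6 and RNA copied from the strand opposite to it cannot be told apart.

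Most transfer RNA genes had lower RPKM than the protein genes outside the empty run. mt-Tl1, a leucine transfer RNA gene that sits between mt-Rnr2 and mt-Nd1, had 195 ± 50.5 RPKM, as high as the middle protein genes. mt-Tp (proline) followed with 95 ± 74.4 RPKM, which overlapped that of mt-Nd6. Next came mt-Tm (methionine) with 60.8 ± 34.7 and mt-Tt (threonine) with 58.6 ± 48.2. The remaining ones outside the empty run lay between 2.05 (mt-Ta, alanine) and 45.9 RPKM (mt-Tq, glutamine), and most neighbours in this order differed by less than their SD across libraries. Compared within each library, mt-Tl2 was above mt-Th, mt-Th above mt-Te and mt-Tf above mt-Tw in 7 of 8. The other neighbours from mt-Tq down kept their order in 3 to 6 libraries. A mature transfer RNA is about as short as a read, so these values may hold precursor RNA as well as the mature form. Counts cannot tell these apart.

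In shares of all counts, the 3 classes differed by orders of magnitude. The ribosomal RNA genes took 26.0%, 20.2%, 23.5%, 24.5% and 22.0% of the counts in replicates 1 to 5 with Fezf2 and 23.3%, 22.3% and 20.3% in replicates 1 to 3 with GFP. The means were 23.3% ± 2.24 (SD, n = 5) and 22.0% ± 1.54 (SD, n = 3), and the groups overlapped. Protein genes took 1.02%, 0.740%, 0.868%, 0.862% and 0.623% with Fezf2 and 0.984%, 0.852% and 0.702% with GFP. Their means of 0.822% ± 0.148 and 0.846% ± 0.141 lay closer together than the libraries within either group.

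Transfer RNA genes took 0.0147%, 0.00580%, 0.0117%, 0.0125% and 0.00699% of the counts with Fezf2, against 0.0259%, 0.0129% and 0.0191% with GFP. The mean was 0.0104% ± 0.00380 (SD, n = 5) with Fezf2 and 0.0193% ± 0.00649 (SD, n = 3) with GFP. Without GFP replicate 1 the GFP mean was 0.0160%, and the difference went from −0.00894 to −0.00565 percentage points. Of the 5 Fezf2 libraries 4 lay below the lowest GFP library, and Fezf2 replicate 1 lay above GFP replicate 2. These shares rest on 218 to 556 counts per Fezf2 library and 514 to 1501 per GFP library. The 95% Wilson intervals of Fezf2 replicate 2 (0.00508% to 0.00662%) and GFP replicate 1 (0.0246% to 0.0272%) cover counting error only, since amplified reads are not independent molecules.

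**Figure D2:**
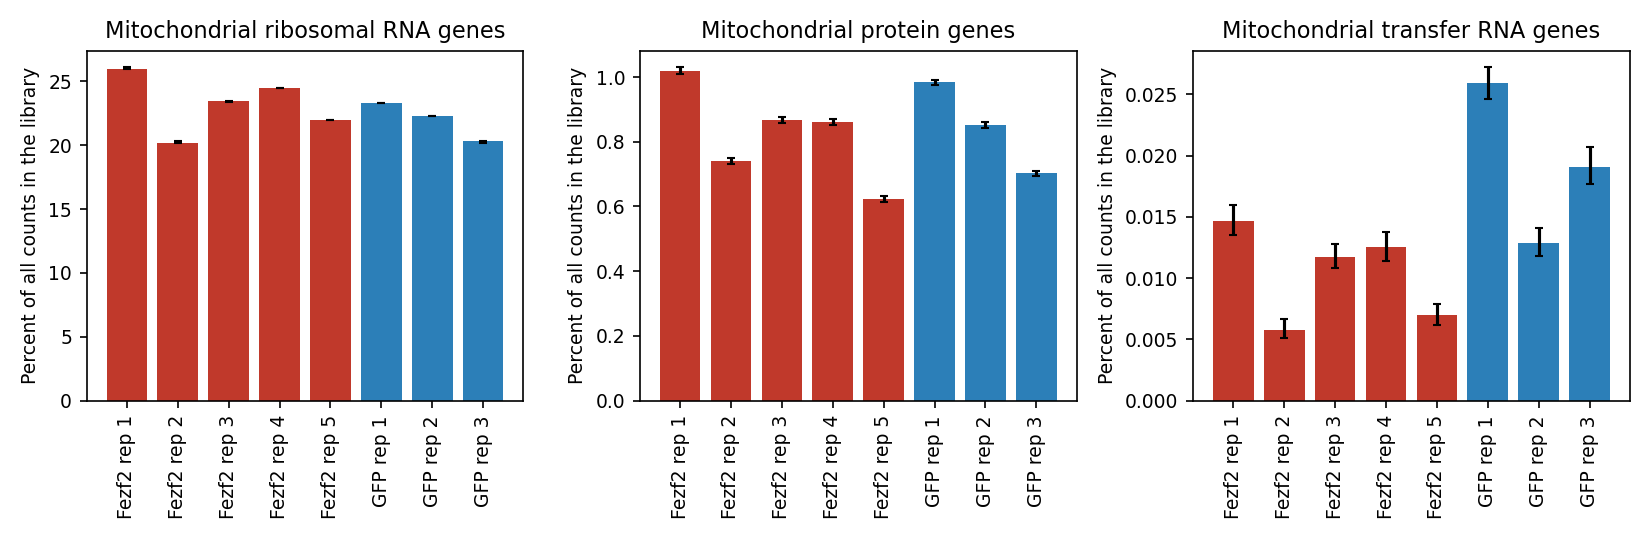
Percent of all counts in each library that fell on mitochondrial ribosomal RNA, protein and transfer RNA genes (red, 5 Fezf2 libraries; blue, 3 GFP libraries; bars start at 0, error bars are 95% Wilson intervals). Ribosomal RNA takes 20.2% to 26.0% in every library, while the transfer RNA share is highest in GFP replicate 1, at 0.0259%.

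For single genes, the edgeR fit over all genes asked which members differed between cells given Fezf2 and cells given GFP. A low-count filter left 21 members: both ribosomal RNA genes, 7 protein genes and 12 transfer RNA genes. The 16 members left out were the 11 of the empty run and mt-Tf, mt-Tw, mt-Ta, mt-Tn and mt-Ty (phenylalanine, tryptophan, alanine, asparagine and tyrosine), which had 11 to 67 counts over all libraries. None of the 21 passed at an edgeR adjusted p of 0.05, beside the 0.0145% of all tested genes that did, and DESeq2 called none either, with a smallest adjusted p of 0.347. At an unadjusted edgeR p under 0.05 there were 7 members, all with lower means in the Fezf2 libraries, and also 7 with DESeq2. Of all genes tested 2.24% met that same edgeR limit in that direction. In 2 members, mt-Nd2 and mt-Tl1, every Fezf2 library lay below every GFP library in CPM, as in 2.46% of all genes tested. In the authors' RPKM the groups overlapped for both. There mt-Nd2 had 102 to 292 RPKM with Fezf2 and 173 to 447 with GFP, and mt-Tl1 had 128 to 237 and 179 to 289. In bulk libraries like these, fewer cells of a type and less RNA per cell cannot be told apart.

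The ribosomal RNA genes had nearly equal means. mt-Rnr1 stood at 42619, 27627, 40428, 44180 and 37281 CPM with Fezf2 and at 41397, 42667 and 33080 CPM with GFP. Its log2 fold change was −0.02 with an SE of 0.17 (edgeR, adjusted p = 0.990), with a sign that turned in several settings. mt-Rnr2 stood at 247472, 173107, 192486, 202394 and 177390 CPM with Fezf2 and 196217, 180341 and 160908 CPM with GFP, giving a log2 fold change of 0.15 with an SE of 0.16 (edgeR, adjusted p = 0.882). The groups overlapped for both. Within a library mt-Rnr2 had 5.81, 6.27, 4.76, 4.58 and 4.76 counts per count of mt-Rnr1 with Fezf2 and 4.74, 4.23 and 4.86 with GFP, so Fezf2 replicates 1 and 2 were the libraries with the highest ratio.

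Of the 7 protein genes tested, 5 had log2 fold changes close to 0. They were mt-Nd1 (0.01, SE 0.17), mt-Nd5 (0.04, SE 0.23), mt-Co1 (0.08, SE 0.18), mt-Cytb (0.10, SE 0.20) and mt-Nd4 (0.12, SE 0.22), with edgeR adjusted p of 0.932 to 0.996. mt-Cytb, for example, had 3922, 2778, 3159, 3084 and 1952 CPM with Fezf2 and 3248, 2939 and 2142 CPM with GFP. The median log2 fold change of the 7 was 0.04, beside 0.02 for all 13754 genes tested. These 5 genes turned to values below 0 without Fezf2 replicate 1 and without GFP replicate 3, and without Fezf2 replicate 1 the median of the 7 was −0.10.

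mt-Nd2, which encodes a subunit of the membrane arm of complex I, stood apart from them. It had 569, 288, 581, 673 and 429 CPM with Fezf2 and 1157, 718 and 681 CPM with GFP. The highest Fezf2 library, replicate 4, lay just under the lowest GFP library, replicate 3, and GFP replicate 1 lay well above all others. The log2 fold change was −0.75 with an SE of 0.24 (edgeR, adjusted p = 0.729), and mt-Nd2 is one of the 7 members with an unadjusted p under 0.05. Without GFP replicate 1 it was −0.46 with an edgeR adjusted p of 0.969. Without the low-count filter mt-Nd2 and mt-Tp were called, at edgeR adjusted p of 0.00187 and 0.0136, where 117 of all genes were called in place of 2.

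mt-Nd6 had 109, 52.5, 136, 124 and 68.4 CPM with Fezf2 and 201, 117 and 101 CPM with GFP. Its groups overlapped, and its log2 fold change was −0.52 with an SE of 0.28 (edgeR, adjusted p = 0.796). Without GFP replicate 1 it was −0.16.

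All 12 transfer RNA genes tested had negative log2 fold changes, from −0.20 to −1.40, and none passed. Their median was −1.04, beside 0.02 for all genes tested, 0.04 for the mitochondrial protein genes and 0.06 for the ribosomal RNA genes. The 8 coded on the same strand as most protein genes had a median of −0.94, and the 4 coded on the other strand −1.10. Members of the same precursor RNA are not independent, so 12 genes are not 12 replicates. By library, the median of the 12 relative to the GFP mean was −0.11, −2.13, −0.57, −0.52 and −1.70 on the log2 scale in Fezf2 replicates 1 to 5, and 0.65, −0.64 and 0.00 in replicates 1 to 3 with GFP. Fezf2 replicates 2 and 5 were thus lowest, Fezf2 replicates 1, 3 and 4 lay inside the GFP range, and GFP replicate 1 was highest. Without GFP replicate 1 the median fold change was −0.58, and without both libraries of high Xist (Fezf2 replicate 5 and GFP replicate 1) it was −0.45.

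The threonine and proline genes, neighbours at the end of the map, had the most negative log2 fold changes. mt-Tt stood at 15.0, 2.37, 6.58, 8.38 and 1.81 CPM with Fezf2 and 27.4, 8.53 and 17.4 CPM with GFP, giving a log2 fold change of −1.40 with an SE of 0.55 (edgeR, adjusted p = 0.729). mt-Tp stood at 26.5, 3.96, 11, 13.3 and 3.10 CPM with Fezf2 and 42.4, 15.8 and 26.2 CPM with GFP, giving a log2 fold change of −1.30 with an SE of 0.52 (edgeR, adjusted p = 0.729). In both, Fezf2 replicate 1 alone among the Fezf2 libraries lay above the lowest GFP library. The 2 genes, coded on opposite strands, followed each other from library to library, but whether reads were counted by strand is not given. The pattern was not particular to them. mt-Te, mt-Th, mt-Ts2 and mt-Tl2 were also lowest in Fezf2 replicates 2 and 5 and highest in GFP replicate 1. Without GFP replicate 1 the log2 fold changes of mt-Tt and mt-Tp were −0.92 and −0.86.

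mt-Tl1, the most abundant transfer RNA gene with 28.8% of all transfer RNA counts, had a smaller difference and a smaller spread. It stood at 41.9, 26.4, 38.3, 39.9 and 32.3 CPM with Fezf2 and 54.5, 44.1 and 51.3 CPM with GFP, with no overlap. The log2 fold change was −0.49 with an SE of 0.20 (edgeR, adjusted p = 0.729).

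A block of neighbours that ends in mt-Nd2 had lower means in the Fezf2 libraries, while mt-Nd1 just before it had nearly equal means. mt-Ti (isoleucine) had means of 5.45 ± 2.72 CPM (SD, n = 5) and 12.1 ± 5.82 CPM (SD, n = 3), giving a log2 fold change of −1.16 (SE 0.47). mt-Tq had 6.29 ± 2.33 and 13.6 ± 6.39 CPM (−1.12, SE 0.41). mt-Tm had 9.20 ± 3.58 and 15.6 ± 7.96 CPM (−0.77, SE 0.39). These sit beside −0.75 for mt-Nd2 and 0.01 for mt-Nd1, and the block was described after its values were seen. The edgeR adjusted p of the 3 transfer RNA genes was 0.729 to 0.778. Lower means were not particular to this block, since all 12 transfer RNA genes tested had negative values, with a median of −1.04. Leaving out GFP replicate 1 gave −0.71 for mt-Ti, −0.72 for mt-Tq and −0.28 for mt-Tm. Within the block, mt-Tq is coded on the other strand.

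The other transfer RNA genes tested had few counts and wide errors. mt-Tl2, the second leucine gene, had a log2 fold change of −1.18 (SE 0.52), mt-Te (glutamate) −1.07 (SE 0.74), mt-Th (histidine) −1.01 (SE 0.69) and mt-Ts2, the second serine gene, −0.88 (SE 0.52). mt-Tc (cysteine) had −0.67 (SE 0.50). mt-Tv (valine), which lies between the ribosomal RNA genes, had 11.5, 4.22, 7.52, 10.1 and 3.62 CPM with Fezf2 and 10.6, 6.77 and 7.96 CPM with GFP, and was nearest to 0 at −0.20 (SE 0.43). It was also the one transfer RNA gene tested whose value did not stay below 0 in every one of the 19 settings run, at 0.18 without both libraries of high Xist.

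**Figure D3:**
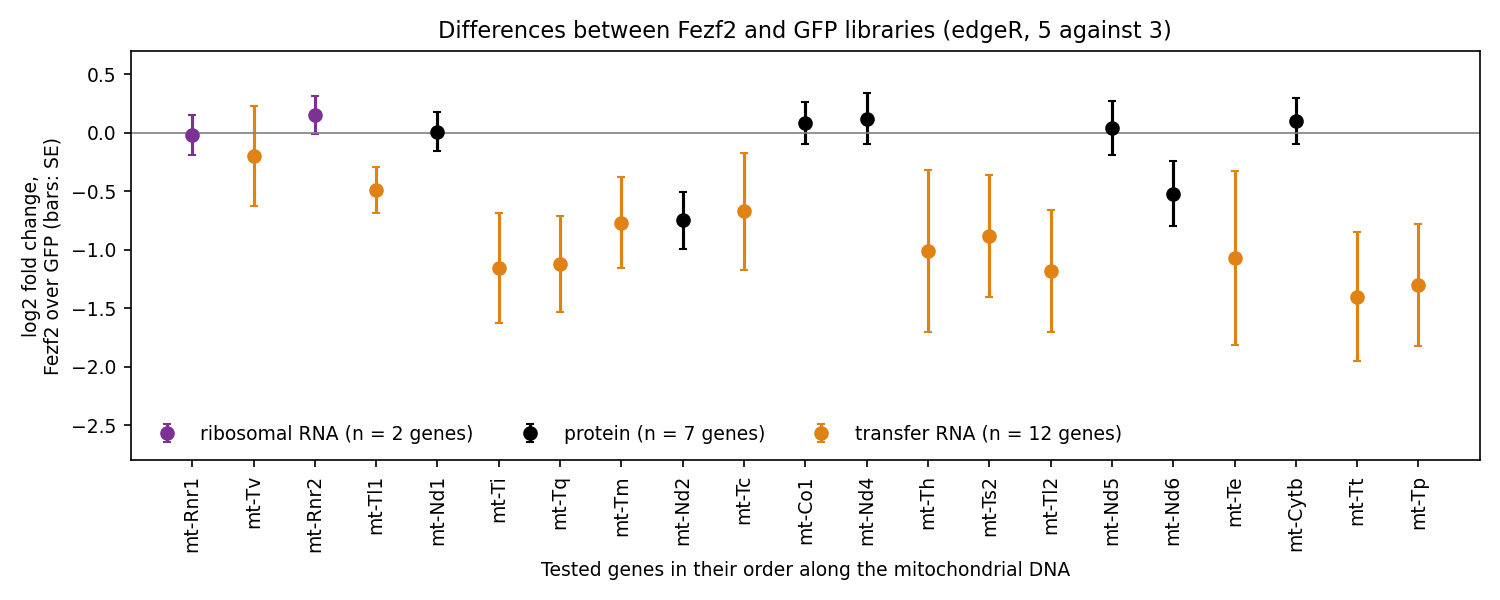
Log2 fold change (Fezf2 over GFP, edgeR; bars are SE) of the 21 members tested, in mitochondrial DNA order, coloured by class. The 12 transfer RNA genes lie between −0.20 and −1.40 and mt-Nd2 at −0.75, while 5 protein genes and both ribosomal RNA genes lie between −0.02 and 0.15; none passed the adjusted test.

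**Figure D4:**
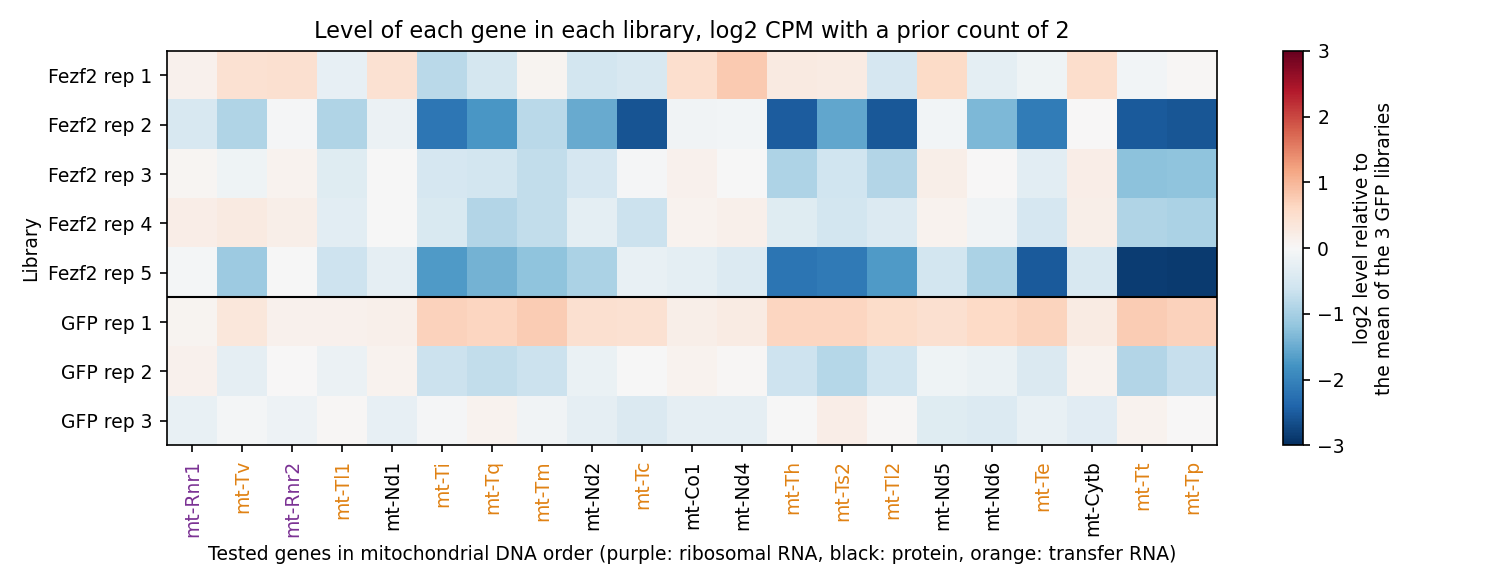
Level of each tested member in each library, as log2 CPM (prior count 2) relative to the mean of the 3 GFP libraries (blue lower, red higher; black line between the groups). The median of the transfer RNA genes is lowest in Fezf2 replicates 2 and 5, at −2.13 and −1.70, and highest in GFP replicate 1, at 0.65. Single genes depart from this: mt-Tv is highest in Fezf2 replicate 1, and mt-Tc lies at −0.23 in Fezf2 replicate 5.

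Ratios within a library do not depend on the scaling between libraries, and were looked at after the values above had been seen. Transfer RNA genes had 14.5, 7.84, 13.5, 14.5 and 11.2 counts per 1000 counts on mitochondrial protein genes in Fezf2 replicates 1 to 5. GFP replicates 1 to 3 had 26.3, 15.1 and 27.2. The means were 12.3 ± 2.85 (SD, n = 5) and 22.9 ± 6.73 (SD, n = 3), with no overlap, although GFP replicate 2 lay close to the highest Fezf2 libraries. With each library left out in turn the ratio of the means, 0.538, ranged from 0.460 to 0.595.

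mt-Nd2 counts per count of mt-Nd1 were 0.194, 0.150, 0.274, 0.315 and 0.238 with Fezf2 and 0.485, 0.312 and 0.374 with GFP. Fezf2 replicate 4 lay just above GFP replicate 2, so these groups overlapped. mt-Nd6 counts per count of mt-Cytb, at 0.0189 to 0.0430 with Fezf2 and 0.0399 to 0.0619 with GFP, overlapped as well. By contrast mt-Co1 per count of mt-Nd1 was held within 0.299 to 0.338 over all 8 libraries.

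**Figure D5:**
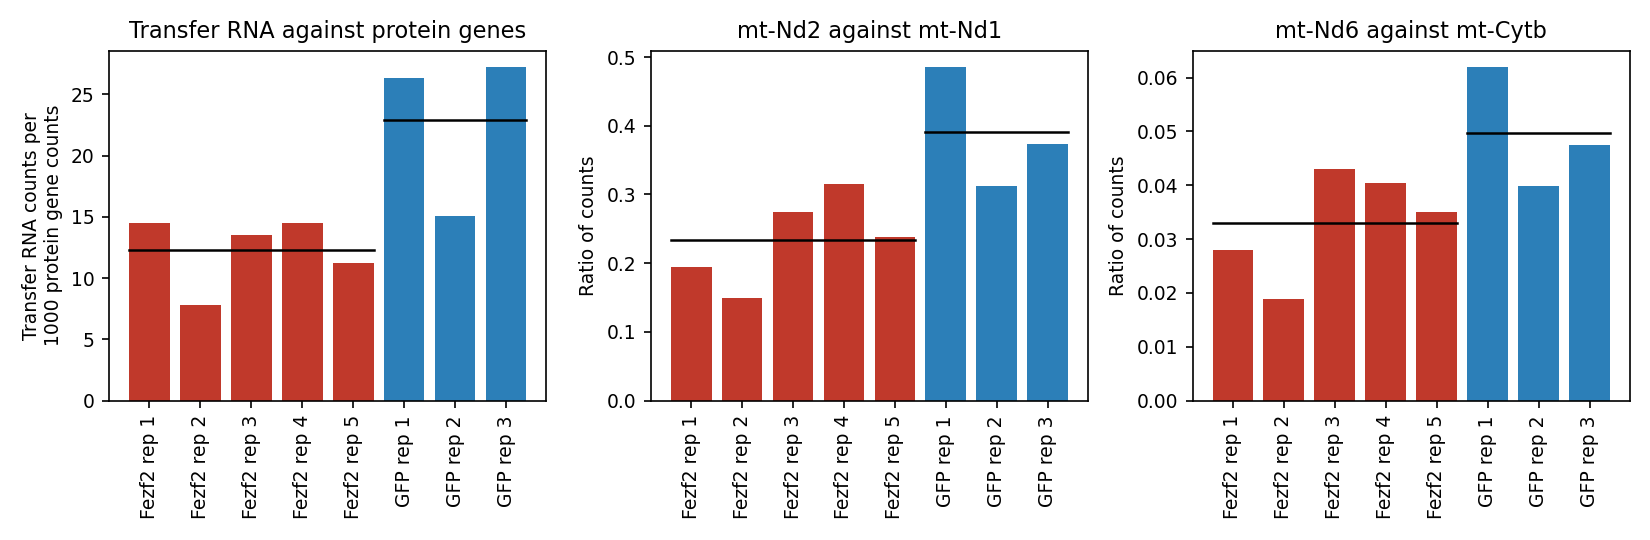
Transfer RNA counts per 1000 counts on mitochondrial protein genes, and count ratios of mt-Nd2 to mt-Nd1 and of mt-Nd6 to mt-Cytb, in each library (red, 5 Fezf2 libraries; blue, 3 GFP libraries; bars start at 0, black lines are group means). The first ratio is 7.84 to 14.5 with Fezf2 and 15.1 to 27.2 with GFP, while the groups overlap in the others.

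The nuclear genes that work with these members were read from the same fit. Of 76 listed nuclear genes of the respiratory chain and ATP synthase, 70 were tested and none was called by edgeR. At an unadjusted p under 0.05 there were 3, all lower with Fezf2, beside 2.24% of all genes in that direction. These were Ndufb2 (38.5 against 58.9 CPM, log2 fold change −0.61, SE 0.18) and Ndufb10 (22.0 against 37.7 CPM, −0.78, SE 0.28) of complex I, and Atpif1, an inhibitor of ATP synthase (99.2 against 139 CPM, −0.49, SE 0.17). Of the 70, 55 had log2 fold changes below 0 and 15 above, beside 6472 below and 7282 above among all 13754 genes tested. The medians were −0.16 for complex I (34 genes tested), 0.00 for complex II (4), −0.35 for complex III (8), −0.16 for complex IV (10) and −0.30 for complex V (14), beside 0.02 for all genes tested.

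The medians of complexes I, III, IV and V were lowest in Fezf2 replicates 1 and 2. The median complex I gene lay at −0.47 and −0.51 relative to the GFP mean in Fezf2 replicates 1 and 2 and at 0.03, 0.05 and −0.07 in Fezf2 replicates 3 to 5. For complex V the values were −0.46, −0.64, −0.12, 0.02 and −0.12 in Fezf2 replicates 1 to 5. Ndufb2, Ndufb10 and Atpif1, named for their small p, lay below the GFP libraries in all 5, as did 2.46% of all genes tested. Cytosolic ribosomal protein genes showed the same 2 libraries low, at −0.60 and −0.62. Fezf2 replicate 2 was also the lowest library in the transfer RNA medians, at −2.13. Those medians differed in the other libraries, with Fezf2 replicate 1 near the GFP mean and Fezf2 replicate 5 low.

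Genes that copy, cut and translate mitochondrial RNA were not called either. In the list for transcription and replication 13 genes were tested; their log2 fold changes had a median of −0.01, with none at an unadjusted p under 0.05. Tfam, which packages and transcribes mitochondrial DNA, had 22.1 against 31.8 CPM (−0.52, SE 0.27), with overlap. In the list for RNA processing and decay 23 were tested, with a median of −0.05, and 2 were higher and 2 lower at an unadjusted p under 0.05. Of all genes tested 4.31% met that limit with higher means and 2.24% with lower means, and the counts in the lists that follow are to be read beside these shares.

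Elac2 encodes the enzyme that trims the 3′ end of transfer RNAs. It had 23.3, 22.2, 20.4, 17.3 and 19.6 CPM with Fezf2 and 15.1, 10.0 and 13.3 CPM with GFP, every Fezf2 library above every GFP library, as in 2.25% of all genes tested. Its log2 fold change was 0.68 with an SE of 0.27 (edgeR, adjusted p = 0.729). Fastkd1, an RNA-binding protein of mitochondria, had 21.8 against 11.3 CPM (0.94, SE 0.35), and Slirp, which binds mitochondrial messenger RNAs, had 38.5 against 53.6 CPM (−0.48, SE 0.20).

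Mitochondrial transfer RNA synthetases (22 tested, median 0.06) held 1 gene at an unadjusted p under 0.05, in the higher direction (4.31% of all genes), the isoleucine enzyme Iars2, with 52.4 against 38.9 CPM (0.43, SE 0.20). Mitochondrial ribosomal proteins (72 tested, median −0.10) held 3, all with lower means with Fezf2 (2.24% of all genes): Mrpl11 (27.0 against 47.4 CPM, −0.81, SE 0.22), Mrps9 (−0.64, SE 0.30) and Mrps17 (−0.50, SE 0.23). Regulators of mitochondrial biogenesis (11 tested, median −0.07) held 1, with a higher mean. Ppargc1a, a coactivator that drives mitochondrial gene programmes, had 20.3, 106, 27.7, 56.6 and 43.1 CPM with Fezf2 and 22.2, 17.8 and 20.3 CPM with GFP (1.33, SE 0.42, adjusted p = 0.729 by edgeR). Fezf2 replicate 2 was the highest library, and Fezf2 replicate 1 lay inside the GFP range.

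Summed cell type markers spanned wider ranges over the 5 Fezf2 libraries than over the 3 GFP libraries, except red blood cell genes, whose ranges were about equally wide. A range over more libraries tends to be wider. The 9 astrocyte markers summed to 705, 2569, 1191, 3578 and 2501 CPM in replicates 1 to 5 with Fezf2 and to 1244, 916 and 890 CPM with GFP, and none of their defining genes was at 0 in more than 1 library. Oligodendrocyte lineage markers (9 genes) summed to 713 to 1679 CPM and 604 to 801 CPM, interneuron markers (8 genes) to 120 to 298 and 145 to 209 CPM, and radial glia and cycling markers (9 genes) to 358 to 904 and 410 to 455 CPM. Endothelial and pericyte markers (7 genes) summed to 50.7 to 181 and 43.3 to 62.5 CPM, microglial markers (7 genes) to 10.6 to 34.6 and 10.3 to 13.5 CPM, and red blood cell genes (5 genes) to at least 9.16 CPM with Fezf2 and to 6.51 to 13.8 CPM with GFP. The transfer RNA shares of the same Fezf2 libraries, in the same order, are given above, and the part of cell makeup in the values of the members was not tested.

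In the neocortex libraries every member was at 0. The library labelled Fezf2 knockout, with 17856211 counts, and the wild-type library, with 11818437, had no count on any of the 37 genes, and their RPKM were 0 too. A count of 0 allows a share of up to 1.68e-05% and 2.54e-05% there. The 76 nuclear genes of the respiratory chain all had counts in both libraries, 124362 and 76414 in sum, so respiratory chain transcripts from the nucleus were counted while those from the mitochondrial DNA were not.

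The zeros were not confined to mitochondrial genes. Of 4482 genes with at least 100 counts in every sorted-cell library, 37 were at 0 in both neocortex libraries, and these comprised all 10 mitochondrially encoded genes that met that limit and 27 others. Of those 27, 8 shared their symbol with another identifier that was counted there. Of the same 27, 18 had no entry among the gene names used here, while all 37 members had one. Sox4, for example, had 11418 and 6229 counts under 1 identifier and 0 under a second, which had 144 to 264 counts in the sorted cells. Strain, age, kit, RNA type and sorting all differ between the neocortex pair and the sorted cells and cannot be told apart. Whether both sets were counted with the same annotation and settings is not given, and the part of counting in these zeros was not tested. No comparison of members between the neocortex pair and the sorted cells was made.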

How the data were processed

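For 10 RNA libraries the authors deposited whole-number counts by Ensembl gene, and also RPKM values. The build was mm9, per the submitters' processing notes, which list HTSeq 0.6.1, STAR 2.4.0e, SAMtools, Bowtie 0.12.5 and FastQC and do not say which step used which. The annotation, the use of strand and the handling of reads with several matches are not given in the sources used here. The deposited RPKM of the sorted cells did not come from the deposited counts, since genes at a count of 0 had RPKM above 0, so they were used to compare genes per length and as an alternative. Counts of the 5 Fezf2 and 3 GFP libraries were tested with edgeR 4.0.16 in R 4.3.3 (filterByExpr, TMM factors, robust quasi-likelihood F test, two-sided, Benjamini-Hochberg over all 13754 genes left by the filter, limit 0.05). Each SE is the absolute log2 fold change divided by the square root of F. Shares used all 35972 identifiers. Alternatives used DESeq2 1.42.0, limma 3.58.1 on log2(RPKM + 1) and log2(RPKM + 0.1), no filter, other scaling, a replicate block and left-out libraries. The edgeR, DESeq2 and limma steps were tested on simulated data. The members, lists and most alternatives were chosen with earlier results of these data known. All members were accounted for, and of each list of nuclear genes at most 3 of smallest p were named. Peak lists were not used. All per-sample columns were matched to samples through their labels.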

Additional observations from a re-analysis of the deposited data

Results flagged for a closer look

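In the Fezf2 libraries mt-Tm stood at 15.3 CPM in replicate 1 and at 5.94 to 8.46 CPM in the other 4. The gap between replicate 1 and the nearest library was 0.732 of the whole range, above Dixon's 95% limit of 0.71 for 5 samples. Of 24 measures tested this way in the Fezf2 libraries it was the 1 past the limit, and chance gives about 1 in 20. The groups have 3 GFP libraries, too few for this check. Without Fezf2 replicate 1 or any other library, mt-Tm kept a log2 fold change below 0, between −1.05 and −0.28.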

How the results depend on the processing

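Of all genes, edgeR called 2, and 117 without the low-count filter, 7 with DESeq2, 6 without Fezf2 replicates 1, 2 and 4, 1 without both libraries of high Xist, and 1 to 2 when leaving out each library in turn. Of the members, 0 were called in these settings except without the filter, where 2 were. Same-numbered Fezf2 and GFP libraries did not deviate together (r of −0.053, −0.014 and −0.045 for numbers 1 to 3), so the numbers are not taken as pairs. With the replicate block over numbers 1 to 3, 10 genes and 0 members were called, against 6 genes for the same 6 libraries unblocked, a setting added after seeing the data. The value of mt-Rnr1 turned above 0 in the authors' RPKM with either pseudocount (0.11), without both libraries of high Xist (0.03) and without single libraries (range −0.14 to 0.07). mt-Nd1 was −0.01 without the filter and −0.01 with mitochondrial genes left out of the totals. Without Fezf2 replicates 1, 2 and 4, mt-Nd1 was −0.15, mt-Co1 −0.08, mt-Nd4 −0.22, mt-Nd5 −0.18 and mt-Cytb −0.12. Leaving out single libraries gave −0.12 to 0.08 for mt-Nd1, −0.05 to 0.17 for mt-Co1, −0.09 to 0.25 for mt-Nd4, −0.13 to 0.33 for mt-Nd5, −0.06 to 0.23 for mt-Cytb and −0.41 to 0.00 for mt-Tv, which was 0.18 without both libraries of high Xist. The transfer RNA median ranged from −1.29 to −0.58 with single libraries left out and mt-Nd2 from −0.89 to −0.41 over all settings. The difference in protein gene share (−0.0241 percentage points) ranged from −0.0961 to 0.0450, and that in ribosomal RNA share (1.30) from 0.458 to 2.05. The difference in transfer RNA share (−0.00894) ranged from −0.0121 to −0.00565. No other tested member turned sign in the settings run, and mt-Nd2 and mt-Tp alone passed the limit, without the filter. The causes were not tested. Counts of 0 to 603 per transfer RNA gene other than mt-Tl1 over 8 libraries limit what these genes can show.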
